A study of Mus musculus with 13 samples.

Results

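Smooth muscle and myofibroblast contractile genes were followed in the postnatal mouse heart. The set was chosen by gene symbol and holds 10 genes of the 33821 that had a named transcript in the deposited tables: Acta2, Actg2, Tagln, Cnn1, Cnn2, Myh11, Myl9, Lmod1, Smtn and Cthrc1. All 10 were found in the 13 libraries. Levels are FPKM, in which fragments are divided by transcript length and library size, summed over the transcripts of a gene and scaled between libraries of a set, so they can be compared between genes per length.

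The animals were wild type FvB mice, and atria were removed from every heart. Cardiac fibroblasts were represented by PN28 and PN60 libraries (postnatal days 28 and 60, 1 library each) and by 2 neonatal libraries, labelled PN1 to PN3 and PN1 to PN2. Cardiomyocytes were represented by PN30 and PN67 libraries (1 each) and by 2 neonatal libraries, labelled PN1 to PN2 and PN1. Whole ventricles were sampled once at embryonic day 17 (E17) and at PN1, PN10, PN28 and PN90. Fibroblasts of all ages came from a preplating step after enzymatic digestion, neonatal cardiomyocytes from preplating with a Cellutron kit, and PN30 and PN67 cardiomyocytes from Langendorff perfusion, per the labels. Age and isolation method therefore cannot be told apart in cardiomyocytes. Fibroblast RNA was extracted with a micro kit and cardiomyocyte RNA with a fibrous tissue kit, so cell type and kit cannot be told apart either. Cell libraries followed a TruSeq protocol and ventricle libraries were depleted of ribosomal RNA and made with ScriptSeq v2, so levels are not compared between these sets. The labels do not say whether libraries came from separate animals, so p-values measure the spread between these libraries, which may be technical. The later ages had no replicate, and PN28 with PN60, or PN30 with PN67, formed the later class of each cell type.

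Smooth muscle cells contract by sliding actin filaments over a myosin of their own, which is switched on when its regulatory light chain is phosphorylated. Fibroblasts that turn into myofibroblasts assemble stress fibers from several of the same proteins, and the smooth muscle actin gene Acta2 is the marker most used for them. Embryonic cardiomyocytes transiently express several of these genes before the adult cardiac isoforms take over. Transcription of many of them depends on serum response factor (SRF), which binds a short DNA element called the CArG box together with myocardin or its relatives.

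The preparations held RNA of several cell types. The 9 measured cardiomyocyte markers had a median of 0.0665% of their cardiomyocyte level in later fibroblasts and 9.66% (range 6.67% to 10.4%) in neonatal fibroblasts. The 8 measured fibroblast markers had a median of 9.99% of their fibroblast level in later cardiomyocytes (range 4.11% to 21.9%) and 7.49% in neonatal cardiomyocytes (range 6.68% to 12.9%). The 11 mural cell markers (smooth muscle cells and pericytes, no member among them) were above 0 in every cell library. Their summed level was 115 and 220 FPKM in later fibroblasts and 166 and 147 FPKM in neonatal fibroblasts, and it was 376 and 393 FPKM in later cardiomyocytes and 285 and 326 FPKM in neonatal cardiomyocytes. The 8 endothelial markers summed to 411 and 397 FPKM in later fibroblasts and 559 and 668 FPKM in neonatal fibroblasts. Of the 8, 6 fell in later fibroblasts, where 20.8% of all genes fell. The endothelial markers summed to 446 and 468 FPKM in later cardiomyocytes and 1228 and 1434 FPKM in neonatal cardiomyocytes. Of the 8, 7 fell in later cardiomyocytes, where 29.8% of all genes fell. The 3 measured erythroid markers summed to 1103 and 712 FPKM in later cardiomyocytes and 15376.5 and 20440 FPKM in neonatal cardiomyocytes. In those neonatal libraries the 9 measured cardiomyocyte markers summed to 12827 and 11877 FPKM. All 3 erythroid markers fell in later cardiomyocytes, where 29.8% of all genes fell. The log2 change was -4.25 for Alas2, the enzyme that starts heme synthesis in red cell precursors. The 7 macrophage and leukocyte markers summed to 967 and 761 FPKM in later fibroblasts and 96.3 and 169 FPKM in neonatal fibroblasts. The 6 mesothelial markers summed to 1.71 and 4.96 FPKM in later fibroblasts and 15.9 and 27.2 FPKM in neonatal fibroblasts. Of the 5 tested 4 fell, where 20.8% of all genes fell in later fibroblasts. The part of these cells in the member levels was not tested. In such bulk samples fewer cells of a type and less RNA per cell cannot be told apart.

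In the ventricles the E17 library stood apart, with 43.4 FPKM over the 6 mesothelial markers against 2.56 to 10.1 FPKM at the later stages. Its 3 erythroid markers summed to 4756 FPKM, against 181 to 233 FPKM later. Ventricle slopes are therefore also given without E17 where the call depends on it. The tables hold no fragment totals. Deposited coverage divided by FPKM, a relative measure of depth, lay between 19.5 and 32.8, and the median half-width of the deposited 95% confidence interval was 7.17% to 8.45% of FPKM.

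Most members were lower at later ages than in neonatal cells, and the drop was deeper in cardiomyocytes for several of them. In fibroblasts 6 of the 9 members tested passed an adjusted p of 0.05 (limma across all 12076 genes, Benjamini-Hochberg), 5 lower and 1 higher, where 40.5% of all genes passed (19.7% higher and 20.8% lower). In cardiomyocytes 8 of 9 passed, 7 lower and 1 higher, where 67% of all genes passed (37.2% higher and 29.8% lower). On FPKM as deposited 8 passed in cardiomyocytes, 0 higher and 8 lower, where 68.1% of all genes did. In fibroblasts 7 then passed, 1 higher and 6 lower, where 50.7% of all genes did. The median change of the 9 members was -0.77 on the log2 scale in fibroblasts and -2.105 in cardiomyocytes, beside -0.02 and 0.10 over all genes tested. Lmod1 had a mean below 1 FPKM in the cell libraries and was not tested there. A mean of 1 FPKM was reached by 9 members in later fibroblasts, 8 in neonatal fibroblasts, 6 in later cardiomyocytes and 9 in neonatal cardiomyocytes, so some members passed the filter mainly through the neonatal cells where they were high. The 10 members summed to 191 and 198 FPKM in later fibroblasts and 407 and 330 FPKM in neonatal fibroblasts. In cardiomyocytes the sums were 331 and 203 FPKM at the later ages and 860 and 642 FPKM in neonatal cells.

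**Figure D1:**
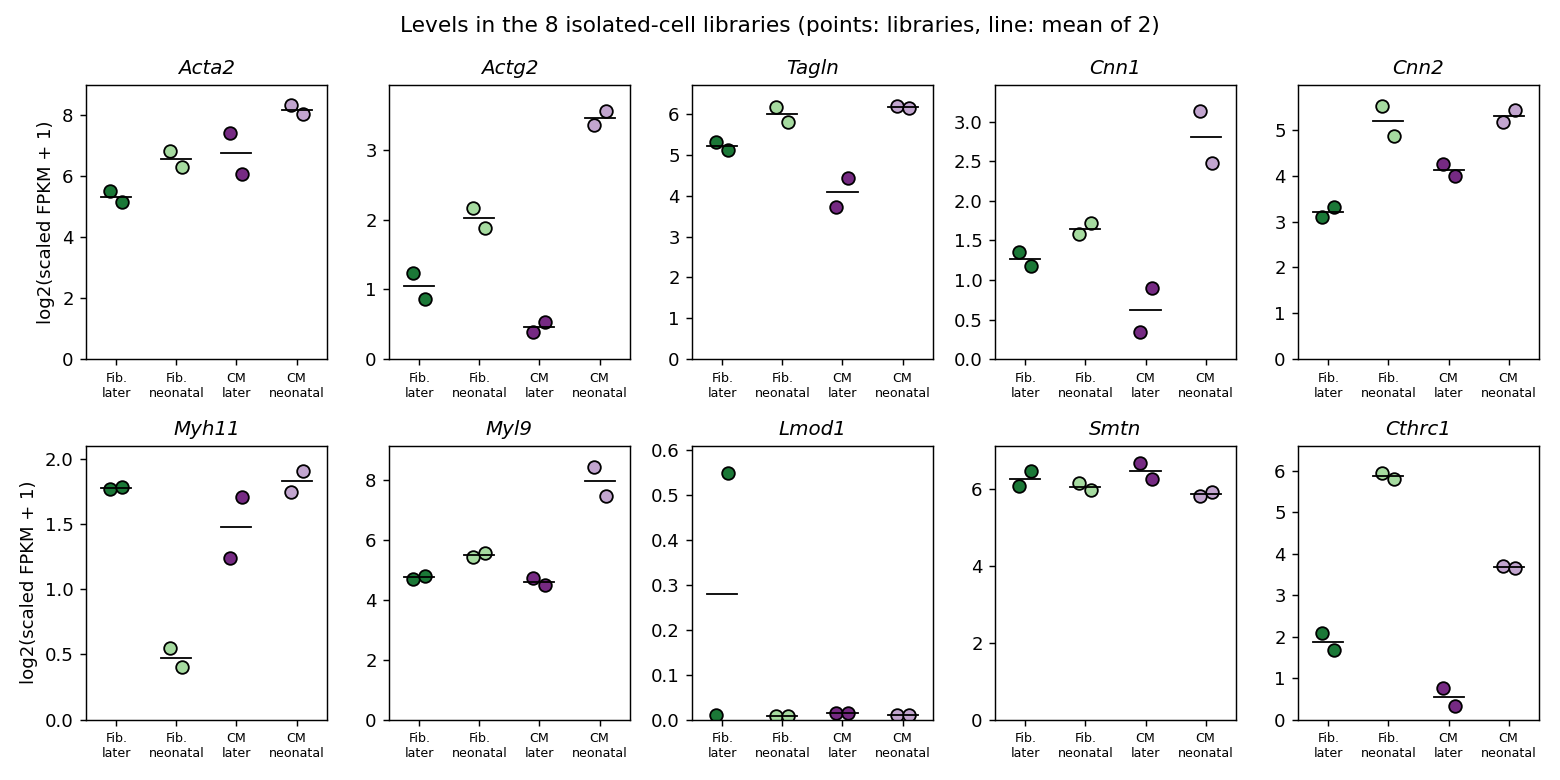
Level of each member, as log2(scaled FPKM + 1), in later fibroblasts (PN28, PN60), neonatal fibroblasts, later cardiomyocytes (CM; PN30, PN67) and neonatal cardiomyocytes. Points are libraries and lines are means of 2; Acta2, Actg2, Cnn1 and Myl9 were highest in neonatal cardiomyocytes, and Cthrc1 in neonatal fibroblasts.

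The smooth muscle actins were highest in neonatal cardiomyocytes and lowest, of the 4 classes, in later fibroblasts (Acta2) or later cardiomyocytes (Actg2). Acta2, which encodes the alpha-actin of vascular smooth muscle and myofibroblast stress fibers, lies on chromosome 19 (chr19:34315580-34329826, mm9) and had 1 deposited transcript. It had 44.4 and 34.5 FPKM in PN28 and PN60 fibroblasts, against 112 and 78.5 FPKM in neonatal fibroblasts. It had 171 and 66.3 FPKM in PN30 and PN67 cardiomyocytes, against 321 and 263 FPKM in neonatal cardiomyocytes. In both cell types every later library was below every neonatal one, and the PN30 and PN67 cardiomyocytes lay on either side of the neonatal fibroblasts, so these 2 classes do not differ beyond their spread. Its log2 change was -1.24 ± 0.40 (SE) in fibroblasts, with an adjusted p of 0.0419, and -1.44 ± 0.40 in cardiomyocytes, with an adjusted p of 0.0141 (limma). The fibroblast call was lost in 6 of the 8 fits that left out 1 library, that is without any 1 of the 4 fibroblast or the 2 neonatal cardiomyocyte libraries (adjusted p over the 8 between 0.00602 and 0.192). The cardiomyocyte call was lost without the PN67 library (-0.729, adjusted p = 0.0512) and without the first neonatal one (-1.28, adjusted p = 0.0797). With no filter on low values neither call passed (limma, adjusted p = 0.117 in fibroblasts and 0.0527 in cardiomyocytes). The difference of the 2 changes was 0.20 ± 0.57 and did not pass the test (adjusted p = 0.785), so neither a like nor an unlike drop is shown.

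Actg2, the gamma-actin of visceral smooth muscle, lies at chr6:83462899-83486259 (mm9). It had 1.36 and 0.827 FPKM in PN28 and PN60 fibroblasts, against 3.49 and 2.71 FPKM in neonatal fibroblasts. In PN30 and PN67 cardiomyocytes it had 0.315 and 0.451 FPKM, against 9.29 and 10.8 FPKM in neonatal cardiomyocytes. The mean of the later cardiomyocytes was 0.038 of the neonatal mean, and no later library reached a neonatal one in either cell type. Its log2 change was -0.97 ± 0.18 in fibroblasts (limma, adjusted p = 0.00415) and -2.995 ± 0.18 in cardiomyocytes (adjusted p = 9.9e-06). The drop was deeper in cardiomyocytes, with a difference of 2.02 ± 0.25 between the changes (adjusted p = 0.000392). The coding sequences of Acta2 and Actg2 are 84.2% identical and those of Acta2 and the cardiac actin Actc1 82.6%. Of the 1986 stretches of 50 bases in the Acta2 sequence of GENCODE M21, the annotation used for names, 7 (0.35%) occurred in transcripts of other genes. Actg1 and actin pseudogenes were among these genes and Actc1 was not. The sequence searched is not of the same length as the deposited transcript.

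The actin-binding members did not share 1 pattern. Tagln, which encodes transgelin (SM22-alpha) and lies at chr9:45737711-45744141 (mm9), had 39.2 and 33.8 FPKM in PN28 and PN60 fibroblasts, against 71.7 and 55.0 FPKM in neonatal fibroblasts. It had 12.2 and 20.7 FPKM in PN30 and PN67 cardiomyocytes, against 73.2 and 70.5 FPKM in neonatal cardiomyocytes. Neonatal fibroblasts and neonatal cardiomyocytes overlapped, and later cardiomyocytes were the lowest class. Its log2 change was -0.77 ± 0.24 (SE) in fibroblasts (limma, adjusted p = 0.0361) and -2.105 ± 0.24 in cardiomyocytes (adjusted p = 0.000159), a difference of 1.33 ± 0.34 (adjusted p = 0.0114). Its fibroblast call was lost in 5 of the 8 fits without 1 library, those without PN60 fibroblasts or any 1 of the 4 neonatal libraries of either cell type (adjusted p between 0.0592 and 0.181). Its end overlaps Pcsk7 by 65 bases, and Pcsk7 averaged 2.46 FPKM as deposited in the cell libraries.

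Cnn1 and Cnn2 encode calponins, which bind actin and dampen the myosin motor. Cnn1, the smooth muscle form (chr9:21903725-21914074, mm9), had 1.56 and 1.26 FPKM in PN28 and PN60 fibroblasts, against 1.99 and 2.28 FPKM in neonatal fibroblasts. It had 0.266 and 0.860 FPKM in PN30 and PN67 cardiomyocytes, against 7.76 and 4.58 FPKM in neonatal cardiomyocytes. The mean of neonatal cardiomyocytes was 10.96 times that of the later ones, while the fibroblast classes lay close together without overlapping. The cardiomyocyte change was -2.19 ± 0.25 on the log2 scale (limma, adjusted p = 0.000176), and the fibroblast change of -0.38 ± 0.25 did not pass the test (adjusted p = 0.266). The difference of the 2 changes was 1.81 ± 0.36 (adjusted p = 0.00382).

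Cnn2, the more widely expressed calponin (chr10:79451329-79458807, mm9), fell in both cell types. It had 7.64 and 9.01 FPKM in PN28 and PN60 fibroblasts, against 45.1 and 28.3 FPKM in neonatal fibroblasts. In PN30 and PN67 cardiomyocytes it had 18.2 and 15.1 FPKM, against 35.2 and 42.1 FPKM in neonatal cardiomyocytes. The 2 neonatal classes overlapped, and later fibroblasts were the lowest class. Its change was -1.98 ± 0.23 in fibroblasts (limma, adjusted p = 0.000513) and -1.17 ± 0.23 in cardiomyocytes (adjusted p = 0.00251). The difference of -0.81 ± 0.32 did not pass (adjusted p = 0.061), and it passed without the second neonatal fibroblast library, at -1.14 (adjusted p = 0.0144). It was -0.486 (adjusted p = 0.17) when the first one was left out.

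**Figure D2:**
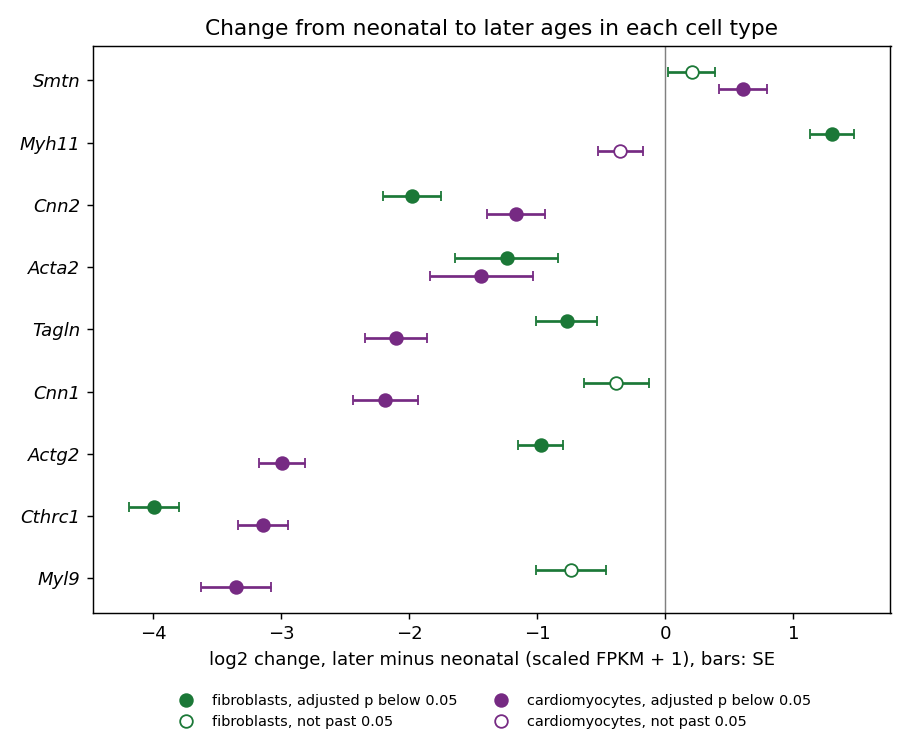
Change from neonatal to later ages (log2 of scaled FPKM + 1, later minus neonatal) in fibroblasts and cardiomyocytes for the 9 members tested; bars are standard errors, filled points passed an adjusted p of 0.05. Myl9 changed by -3.35 in cardiomyocytes and -0.74 in fibroblasts, and Myh11 by 1.30 in fibroblasts.

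Of the motor subunits, the light chain fell most in cardiomyocytes and the heavy chain rose in fibroblasts. Myl9, the regulatory light chain of smooth muscle and non-muscle myosin (chr2:156601156-156607394, mm9), had 25.2 and 26.8 FPKM in PN28 and PN60 fibroblasts, against 41.7 and 46.5 FPKM in neonatal fibroblasts. It had 25.3 and 21.5 FPKM in PN30 and PN67 cardiomyocytes, against 344 and 178 FPKM in neonatal cardiomyocytes. The later libraries of the 2 cell types overlapped, and both neonatal cardiomyocyte libraries stood far above the other 6. Myl9 changed by -3.35 ± 0.27 (log2, SE) in cardiomyocytes (limma, adjusted p = 3.44e-05) and by -0.74 ± 0.27 in fibroblasts, which did not pass (adjusted p = 0.0659). The difference of the changes was 2.62 ± 0.39 (adjusted p = 0.000944). On FPKM as deposited the fibroblast change was -1.08 and passed (adjusted p = 0.0163), in a scaling in which the median of all genes moved by -0.29. It also passed without either neonatal cardiomyocyte library (adjusted p = 0.0113 and 0.0111).

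Cnn2 and Myl9 were the members whose promoter window held a strict CArG box, the SRF element. RefSeq windows (GRCm38.p6) were available for 6 members, Acta2, Cnn1, Cnn2, Myl9, Lmod1 and Smtn, and the 250 bases before the start were searched on both strands. The box lay 56 bases before the Cnn2 start and 161 bases before the Myl9 start, and 1.47% of 32851 windows of this length held one. The Acta2 window held no strict box and did hold CATTCC, the core of the TEAD element, on one strand or the other. CATTCC was found in 3 of the 6 windows (Acta2, Lmod1 and Smtn) and in 12.6% of all windows. With 1 mismatch to the strict pattern allowed, a search added later, 4 of the 6 windows held a box, as did 18.6% of all windows. The 4 were Acta2, Myl9 and Lmod1, with 2 boxes each, and Cnn2, with 1. The windows of Cnn2 and Myl9 are shown for their box, which is in capitals, and that of Acta2 as the marker most used for myofibroblasts. They were chosen after the search was seen; the Cnn1 window held neither motif.
Cnn2, chr10:79988350-79988599, plus strand: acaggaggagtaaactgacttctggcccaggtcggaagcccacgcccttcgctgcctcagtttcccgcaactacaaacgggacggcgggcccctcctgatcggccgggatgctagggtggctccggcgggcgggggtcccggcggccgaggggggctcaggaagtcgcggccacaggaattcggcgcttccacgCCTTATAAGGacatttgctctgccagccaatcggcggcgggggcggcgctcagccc
Myl9, chr2:156775214-156775463, plus strand: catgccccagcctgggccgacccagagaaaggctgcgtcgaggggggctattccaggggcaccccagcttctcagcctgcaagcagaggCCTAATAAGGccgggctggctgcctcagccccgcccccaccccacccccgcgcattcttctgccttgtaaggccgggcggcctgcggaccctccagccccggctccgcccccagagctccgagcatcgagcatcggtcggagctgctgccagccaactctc
Acta2, chr19:34255374-34255623, minus strand: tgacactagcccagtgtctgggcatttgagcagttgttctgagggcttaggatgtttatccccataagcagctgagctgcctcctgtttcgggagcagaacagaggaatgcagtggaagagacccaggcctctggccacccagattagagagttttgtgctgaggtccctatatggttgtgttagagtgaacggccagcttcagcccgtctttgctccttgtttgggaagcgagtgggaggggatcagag
A match of letters is a description of these windows and not a binding site.

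Myh11, the myosin heavy chain that defines differentiated smooth muscle (chr16:14194620-14291501, mm9), rose in fibroblasts. Its matched transcript had 2.40 and 2.45 FPKM in PN28 and PN60 fibroblasts, against 0.464 and 0.320 FPKM in neonatal fibroblasts. It had 1.36 and 2.27 FPKM in PN30 and PN67 cardiomyocytes, against 2.35 and 2.75 FPKM in neonatal cardiomyocytes. Neonatal fibroblasts were the lowest class. The fibroblast change was 1.30 ± 0.17 (log2, SE; limma, adjusted p = 0.0011), the cardiomyocyte change -0.35 ± 0.17 did not pass (adjusted p = 0.109), and the changes differed by 1.65 ± 0.25 (adjusted p = 0.000973). The cardiomyocyte change passed on FPKM as deposited (-0.60, adjusted p = 0.0144) and without the PN67 library (-0.57, adjusted p = 0.0215). The mural markers Rgs5 and Vtn rose in later fibroblasts too (log2 change 1.38 and 2.50), and Mcam fell by 2.05. Of the 11 mural markers 3 rose and 1 fell, where 19.7% of all genes rose and 20.8% fell. The part of the mural markers in the Myh11 change was not tested.

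The matched Myh11 transcript carried the smaller share of the locus. A second deposited transcript of the same span had no match in the annotation used for names and was 39 bases shorter (6593 against 6632 bases), so which myosin isoform each stands for is not settled here. As deposited, the 2 together had 8.06 and 8.40 FPKM in PN28 and PN60 fibroblasts, against 2.93 and 2.11 FPKM in neonatal fibroblasts. They had 4.53 and 7.06 FPKM in PN30 and PN67 cardiomyocytes, against 15.7 and 17.6 FPKM in neonatal cardiomyocytes. The share of the matched transcript was 25.9% and 26.4% in later fibroblasts and 17.6% in each neonatal fibroblast library, and 27.1% and 28.6% in later cardiomyocytes and 17.5% and 17.8% in neonatal cardiomyocytes. With both transcripts joined, a setting added after the data were seen, Myh11 changed by 1.68 in fibroblasts (limma, adjusted p = 0.000856) and by -1.07 in cardiomyocytes (adjusted p = 0.00286). The cardiomyocyte change passed the test on the whole locus and not on the named transcript. Of 6500 stretches of 50 bases in the GENCODE M21 sequence of Myh11, 26 (0.4%) were shared with Myh9 or Myh10, the non-muscle heavy chains. That sequence is not of the same length as the deposited transcript.

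**Figure D3:**
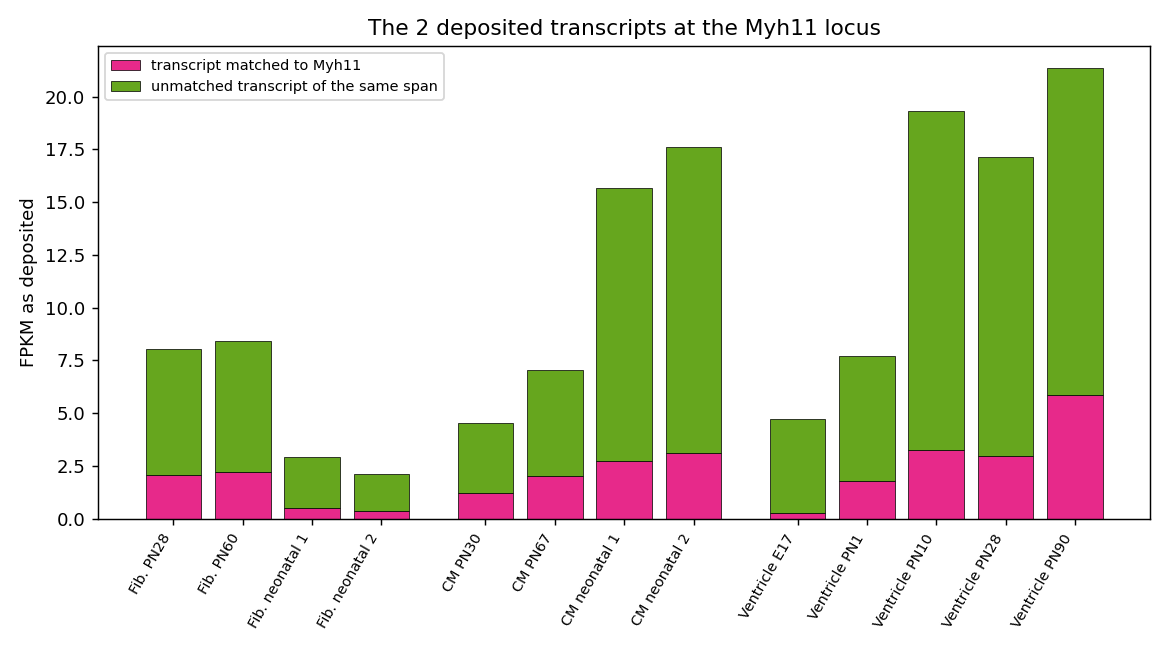
FPKM as deposited of the 2 transcripts at the Myh11 locus in fibroblasts, cardiomyocytes (CM) and ventricles, stacked; 1 bar per library. The locus sum was 8.06 and 8.40 in later fibroblasts and 2.93 and 2.11 in neonatal ones, and 4.71 at E17 and 21.3 at PN90 in ventricles.

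Lmod1, leiomodin 1, which starts new actin filaments in smooth muscle (chr1:137221384-137264642, mm9), was low in isolated cells. Its matched transcript had 0.418 FPKM as deposited in PN60 fibroblasts and at most 0.00940 FPKM in the other 7 cell libraries. In those 7 the estimate sat on an unmatched transcript of nearly the same span, marked as low data, with 0.521 FPKM in PN28 fibroblasts and 0.236 to 0.244 FPKM in neonatal fibroblasts. That transcript had 0.508 and 0.890 FPKM in PN30 and PN67 cardiomyocytes, against 1.116 and 1.124 FPKM in neonatal cardiomyocytes. The split between the 2 transcripts moved from library to library, so no change is read from either alone. Both were also joined, in a setting added after the data were seen. The scaled sum was then 0.610 and 0.465 FPKM in PN28 and PN60 fibroblasts, against 0.228 and 0.211 FPKM in neonatal fibroblasts. It was 0.576 and 1.01 FPKM in PN30 and PN67 cardiomyocytes, against 0.968 and 0.995 FPKM in neonatal cardiomyocytes, and was not tested.

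Smtn encodes smoothelin, a cytoskeletal protein of contractile smooth muscle with a short and a long form made from separate start sites (chr11:3417526-3440615, mm9). Its summed level was higher in later than in neonatal cardiomyocytes, by a call that did not hold in every setting. Its isoforms changed strongly in cardiomyocytes. The sum was 65.6 and 86.7 FPKM in PN28 and PN60 fibroblasts, against 69.6 and 61.3 FPKM in neonatal fibroblasts, and these classes overlapped. It was 101 and 75.6 FPKM in PN30 and PN67 cardiomyocytes, against 55.3 and 58.9 FPKM in neonatal cardiomyocytes. The cardiomyocyte change was 0.61 ± 0.18 (log2, SE; limma, adjusted p = 0.0204) and the fibroblast change 0.20 ± 0.18 did not pass (adjusted p = 0.407). The cardiomyocyte call depended on the scaling, since on FPKM as deposited the change was 0.25 with an adjusted p of 0.274. It was also lost without the PN30 library (0.429, adjusted p = 0.105) and without either neonatal cardiomyocyte library.

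The short isoform, Smtn-201, took 69.6% and 67.3% of the summed FPKM in PN30 and PN67 cardiomyocytes, against 18.3% and 14.3% in neonatal cardiomyocytes. The long isoform, Smtn-202, took 7.53% and 7.60% in PN30 and PN67 cardiomyocytes, against 48.7% and 58.3% in neonatal cardiomyocytes. In fibroblasts the long isoform led at every age, with 70.9% and 71.8% at PN28 and PN60, against 72.7% and 69.4% in neonatal cells, and the short one stayed at 0.93% to 3.05%. No later cardiomyocyte library overlapped a neonatal one for either isoform.

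Isoform use was tested on the log ratio of an isoform to the others of its gene, over 11159 isoforms, and called at an adjusted p below 0.05 with a share change of at least 10 points. In cardiomyocytes 2 of the 8 member isoforms tested were called, where 17.6% of all isoforms were. These were Smtn-201, up by 52.1 points (limma, adjusted p = 0.000117), and Smtn-202, with a change of -45.9 points (adjusted p = 3.28e-05). In fibroblasts 0 of 8 were called, where 3.9% of all isoforms were, and 4 of the 8 had an unadjusted p under 0.05 (limma). The changes of the 2 isoforms differed between the cell types, by -53.6 points for Smtn-201 (adjusted p = 0.000527) and 46.2 points for Smtn-202 (adjusted p = 0.000317), in a comparison in which 13.9% of isoforms were called. The isoforms of Cnn2 and Myl9 tested moved by less than 6 points in each cell type and were not called.

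The 2 smoothelin isoforms differ at the 5′ end. In the GENCODE M21 annotation (GRCm38), Smtn-201 has 9 exons and 436 codons, and Smtn-202 has 21 exons and 921 codons. Of the 9 exons of Smtn-201, 8 are exons of Smtn-202, and the first one is its own, with 399 coding bases. The first 60 coding bases are shown for each because they mark where the forms part, with the start codon in capitals.
Smtn-201 (short): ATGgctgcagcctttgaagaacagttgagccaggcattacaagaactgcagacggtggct
Smtn-202 (long): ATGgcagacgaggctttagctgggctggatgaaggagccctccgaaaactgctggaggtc
Cufflinks shares fragments of common exons between isoforms by an estimate, so shares rest on the exons that differ, which are 1 of the 9 in Smtn-201. Smtn-202 holds 19 of the 20 exons of Smtn-203 and 21 of the 22 of Smtn-210, long forms of 923 and 921 codons. The share of Smtn-202 is therefore not that of all long forms. Smtn overlaps the noncoding genes Gm11946 and Gm11947, which averaged at most 1.95 FPKM per transcript as deposited in the cell libraries, and the sources used here do not state whether strand was used in the quantification.

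**Figure D4:**
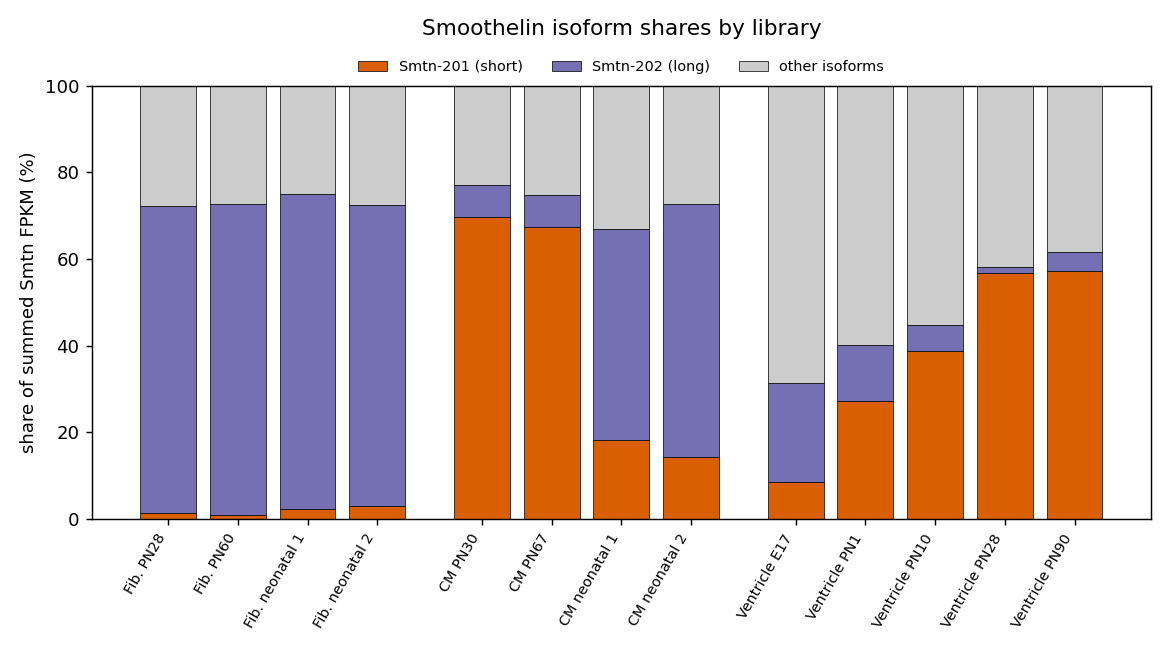
Share (%) of the summed Smtn FPKM taken by the short isoform Smtn-201, the long isoform Smtn-202 and all other isoforms, with 1 bar per library. Libraries are fibroblasts, cardiomyocytes (CM) and ventricles, and the other isoforms include further long forms such as Smtn-203. The short isoform took 69.6% and 67.3% in later cardiomyocytes and 18.3% and 14.3% in neonatal ones, and 8.41% at E17 and 57.1% at PN90 in ventricles.

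Cthrc1, a secreted protein made by activated fibroblasts during repair (chr15:38908478-38918667, mm9), is the member that belongs to the matrix side of the myofibroblast program. It had 3.23 and 2.22 FPKM in PN28 and PN60 fibroblasts, against 60.7 and 55.0 FPKM in neonatal fibroblasts. It had 0.690 and 0.251 FPKM in PN30 and PN67 cardiomyocytes, against 12.1 and 11.7 FPKM in neonatal cardiomyocytes. The 4 classes did not overlap, and neonatal fibroblasts led. Later means were 0.047 of the neonatal mean in fibroblasts and 0.040 in cardiomyocytes. Its log2 change was -3.99 ± 0.20 (SE) in fibroblasts (limma, adjusted p = 2.02e-05) and -3.15 ± 0.20 in cardiomyocytes (adjusted p = 1.19e-05). The difference of -0.85 ± 0.28 passed (adjusted p = 0.0314) and was lost in 6 of the 8 fits without 1 library, those without PN60 fibroblasts, PN30 cardiomyocytes or any 1 of the 4 neonatal libraries (adjusted p between 0.0575 and 0.107). With no filter on low values it did not pass (limma, adjusted p = 0.0669). The difference was 0.127 with a pseudocount of 0.1, so its direction is not settled.

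The changes themselves differed between the cell types for 6 of 9 members, where 58.6% of all genes passed this test (26.3% higher and 32.2% lower). Myl9, Actg2, Cnn1, Myh11 and Tagln had the higher change in fibroblasts and Cthrc1 the lower one. The median difference of the 9 members was 1.33, beside -0.09 over all genes tested.

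Between the cell types, neonatal fibroblasts were below neonatal cardiomyocytes for most smooth muscle members. In neonatal cells 6 of 9 members passed, 5 lower in fibroblasts and 1 higher, where 40.5% of all genes passed (19.1% higher and 21.5% lower). Lower in fibroblasts were Myl9 (-2.46 ± 0.27, log2 and SE, fibroblasts minus cardiomyocytes; limma, adjusted p = 0.000369), Acta2 (-1.62 ± 0.40, adjusted p = 0.015), Actg2 (-1.43 ± 0.18, adjusted p = 0.000613), Myh11 (-1.35 ± 0.17, adjusted p = 0.000779) and Cnn1 (-1.16 ± 0.25, adjusted p = 0.00908). Cthrc1 was higher in fibroblasts by 2.19 ± 0.20 (adjusted p = 0.000126). With no filter on low values Acta2 did not pass (limma, adjusted p = 0.057). The Acta2 call was lost without the first or the second neonatal cardiomyocyte library (adjusted p = 0.0983 and 0.0554) or the second neonatal fibroblast library (0.0919). The Cnn1 call was lost without the first neonatal library of either cell type (0.0618 without the fibroblasts, 0.0657 without the cardiomyocytes).

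At the later ages Actg2 and Cnn1, lower in neonatal fibroblasts, were higher in fibroblasts, though both later calls depended on single libraries. Of the 9 tested, 6 passed, 4 higher and 2 lower in fibroblasts, where 77.7% of all genes passed (39.3% higher and 38.4% lower). Cthrc1 (1.34 ± 0.20, limma, adjusted p = 0.000371), Tagln (1.14 ± 0.24, adjusted p = 0.0028), Cnn1 (0.65 ± 0.25, adjusted p = 0.0468) and Actg2 (0.59 ± 0.18, adjusted p = 0.016) were higher in fibroblasts. Acta2 (-1.42 ± 0.40, adjusted p = 0.012) and Cnn2 (-0.92 ± 0.23, adjusted p = 0.0065) were lower in fibroblasts. The Cnn1 call was lost without any 1 of the 4 fibroblast libraries or the PN30 cardiomyocytes (0.362 without the last), and the Actg2 call without the PN28 fibroblasts (0.417) or the PN30 cardiomyocytes (0.515). Cnn1 also did not pass on FPKM as deposited (limma, adjusted p = 0.0624) or with no filter on low values (0.114). With transcripts under 200 bases kept, its adjusted p was 0.0542 (limma). Acta2 had an adjusted p of 0.0508 without the PN60 fibroblasts, and its value was -0.768 without the PN30 cardiomyocytes and -2.12 without the PN67 ones. Myh11 (0.30, adjusted p = 0.146) passed without the PN67 cardiomyocytes (0.533, adjusted p = 0.0223). Isoform use differed for Smtn at both ages, in a comparison added after the data were seen. At the later ages Smtn-201 had a share 67.2 points lower in fibroblasts than in cardiomyocytes (-67.2, adjusted p = 1.63e-06) and Smtn-202 a share 63.8 points higher (adjusted p = 1.84e-06), where 27.5% of all isoforms were called. In neonatal cells the differences were -13.7 and 17.5 points (adjusted p = 0.00106 and 0.0109), where 7.22% of isoforms were called. The Smtn-202 difference was lost without the first neonatal library of fibroblasts (adjusted p = 0.0635) or of cardiomyocytes (0.0668).

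In whole ventricles the members parted into rising and falling genes across the 5 stages. By the slope on the order of the stages, 6 of 10 members passed (limma across 11621 genes), 2 rising and 4 falling, where 34.9% of all genes passed (20.4% rising and 14.6% falling). The median slope of the 10 was -0.33 per stage on the log2 scale, beside 0.01 over all genes. Without E17 3 members passed, where 10.8% of all genes did, and without PN28 also 3, where 20.1% did. On FPKM as deposited 7 passed, 1 rising and 6 falling, where 40.5% of all genes did. Each stage had 1 library, so steps between stages are values with no test.

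**Figure D5:**
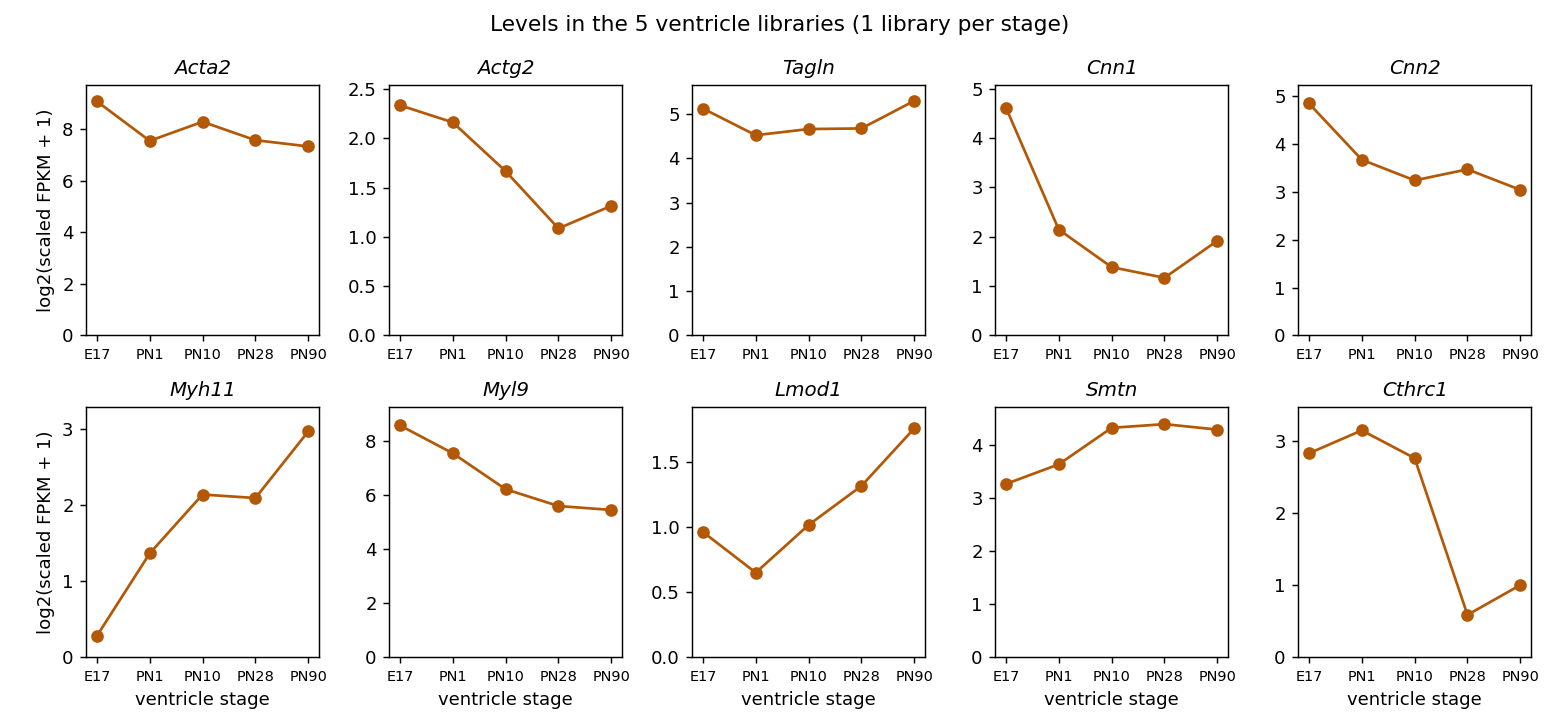
Level of each member, as log2(scaled FPKM + 1), in the 5 ventricle libraries from E17 to PN90, 1 library per stage. Myh11, Lmod1 and Smtn ended above their E17 level, and Myl9, Cnn1, Cnn2, Actg2, Acta2 and Cthrc1 below it.

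Myl9 fell at every step in ventricles, with 383, 187, 73.7, 47.5 and 42.9 FPKM at E17, PN1, PN10, PN28 and PN90. Its slope was -0.82 ± 0.10 per stage (log2, SE; limma, adjusted p = 0.00468), and E17 was 8.92 times PN90. Actg2 had 4.05, 3.48, 2.18, 1.12 and 1.49 FPKM over the same stages, a slope of -0.31 ± 0.07 (adjusted p = 0.0177), with an adjusted p of 0.107 without E17 and 0.06 without PN1. Cnn2 had 27.8, 11.7, 8.45, 10.1 and 7.24 FPKM, and its slope of -0.38 ± 0.10 (adjusted p = 0.0333) became -0.17 without E17 (adjusted p = 0.239). Most of the Cnn2 drop lay between E17 and PN1. The call was also lost without PN28 (adjusted p = 0.0679) or PN90 (0.0777).

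Cthrc1 stayed up through the first days and was low from PN28 on. It had 6.08, 7.82, 5.76, 0.504 and 1.00 FPKM at E17, PN1, PN10, PN28 and PN90, and its slope was -0.62 ± 0.17 (limma, adjusted p = 0.0352). Leaving out E17, PN1, PN28 or PN90 ended this call (adjusted p between 0.0539 and 0.0954). Acta2 had 537, 185, 310.03, 189 and 159 FPKM, and Cnn1 had 23.5, 3.42, 1.61, 1.25 and 2.78 FPKM. Both were highest at E17, and their slopes of -0.35 ± 0.13 and -0.64 ± 0.24 did not pass (adjusted p = 0.083 and 0.0894). Without E17 the Cnn1 slope was -0.092 and the Acta2 slope -0.141. Acta2 passed without PN1 (-0.458, adjusted p = 0.0242) and on FPKM as deposited (-0.474, adjusted p = 0.0248), and Cnn1 without PN90 (-1.12, adjusted p = 0.0222).

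Myh11 rose in ventricles. Its matched transcript had 0.216, 1.58, 3.40, 3.26 and 6.81 FPKM at E17, PN1, PN10, PN28 and PN90, a slope of 0.61 ± 0.09 (limma, adjusted p = 0.00559). Both transcripts of the locus together, as deposited, had 4.71, 7.71, 19.3, 17.2 and 21.3 FPKM, and the slope of the joined level was 0.61 (adjusted p = 0.00868). The largest step of the joined level lay between PN1 and PN10. The 10 measured mural markers summed to 168, 234, 459, 434 and 389 FPKM over these stages, highest at PN10. Lmod1 had 0.95, 0.571, 1.02, 1.49 and 2.39 FPKM, and its slope of 0.23 ± 0.07 missed the threshold (adjusted p = 0.054) and passed without E17 (0.353, adjusted p = 0.0413).

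Smtn had 8.64, 11.5, 19.1, 20.0 and 18.6 FPKM in ventricles, with a slope of 0.28 ± 0.07 (limma, adjusted p = 0.0298). The call was lost on FPKM as deposited (0.162, adjusted p = 0.0987) and without E17, PN1 or PN28. The short isoform Smtn-201 took 8.41%, 27.1%, 38.8%, 56.7% and 57.1% of the sum at E17, PN1, PN10, PN28 and PN90. The long isoform Smtn-202 took 23.0%, 13.1%, 6.05%, 1.5% and 4.34%. Smtn-203, a long isoform of 923 codons, took 50.6% at E17 and 28.7% at PN90, and was at 3.04% to 11.5% in the cell libraries. Tagln had 33.9, 22.0, 24.3, 24.5 and 38.4 FPKM, lowest at PN1 and highest at PN90, and its slope of 0.05 ± 0.09 did not pass (adjusted p = 0.699).

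The genes around the members moved in both directions. Of 27 tested genes of smooth muscle contraction other than members, 3 rose and 8 fell in later fibroblasts, with a median change of -0.21. In later cardiomyocytes 8 rose and 13 fell, with a median of -0.47. Over all genes, 40.5% passed in fibroblasts, 67% in cardiomyocytes and 34.9% by the ventricle slope. In fibroblasts the largest changes among those that passed were those of Des (desmin, the muscle intermediate filament, -1.98), Pdlim3 (-1.94) and Synpo2 (1.83). In cardiomyocytes Hspb6 (a small heat shock protein that relaxes smooth muscle, 3.26) and Synpo2 (2.78) were among those that rose, and cardiac muscle expresses both. Des and the cardiomyocyte markers moved the same way in fibroblasts: all 9 tested cardiomyocyte markers fell there, with -5.39 for Myl2 and -5.11 for Tnnt2, and their part in the fibroblast changes of contractile genes was not tested. In ventricles 8 genes of this list rose and 5 fell, Hspb6 (slope 0.92) and Synpo2 (0.64) among the rising ones.

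Of 16 tested genes of SRF and its cofactors, 1 rose and 3 fell in later fibroblasts, and 2 rose and 7 fell in later cardiomyocytes. Over all genes, 40.5% passed in fibroblasts, 67% in cardiomyocytes and 34.9% by the ventricle slope. Klf5, a zinc finger factor of immature and activated smooth muscle, changed by -3.48 in cardiomyocytes, and Wwtr1, the TEAD coactivator TAZ, by -1.87. Gata6 changed by -1.23 in fibroblasts. Myocd, the cofactor that drives the smooth muscle program with SRF, was lower in fibroblasts than in cardiomyocytes, by 2.20 ± 0.23 in neonatal cells (limma, log2 difference -2.20, adjusted p = 0.000301) and 2.95 ± 0.23 at the later ages (-2.95, adjusted p = 1.15e-05). It had 0.650 and 0.460 FPKM in PN28 and PN60 fibroblasts, against 13.9 and 8.70 FPKM in PN30 and PN67 cardiomyocytes. In ventricles 0 of 13 genes of this list rose and 2 fell by limma, Gata6 (slope -0.23) and Smad2 (-0.17), and 2 rose at an unadjusted p under 0.05.

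Of 29 tested genes of the myofibroblast and TGF-beta response, 7 rose and 7 fell in later fibroblasts, with a median change of -0.20. In later cardiomyocytes 6 rose and 20 fell, with a median of -1.28. Over all genes, 40.5% passed in fibroblasts, 67% in cardiomyocytes and 34.9% by the ventricle slope. Fn1, fibronectin, changed by -4.65 in fibroblasts and -4.38 in cardiomyocytes. It had 10.9 and 6.91 FPKM in PN28 and PN60 fibroblasts, against 238 and 247 FPKM in neonatal fibroblasts. Itga11 (2.89) and Col8a1 (2.77), an integrin and a collagen linked to activated fibroblasts, rose in fibroblasts. In ventricles 5 of 31 rose and 14 fell, led by Fn1 (slope -1.11), Postn (-0.96) and Ccn4 (-0.82).

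Genes with the pattern most like Acta2 and Myh11 were looked up over the 8 cell libraries among 8223 genes with a mean of at least 5 FPKM, by Pearson's r of log2(scaled FPKM + 1). For Acta2 they were Kcne1 (0.973), Smarcb1 (0.956), Pola2 (0.953), Cdkn2aipnl (0.953) and G3bp2 (0.952). Kcne1, a potassium channel subunit, had 0.05 and 0 FPKM in later fibroblasts and 5.28 and 4.32 FPKM in neonatal fibroblasts, and 6.42 and 1.23 FPKM in later cardiomyocytes and 39.1 and 40.3 FPKM in neonatal cardiomyocytes. For Myh11 they were Adgrg1 (0.984), Zbtb22 (0.941), Ceacam1 (0.916), Ankrd33b (0.915) and Rgcc (0.911). Pearson's r does not reflect the size of a change. Over the 8 libraries Acta2 lay between 34.5 and 321 FPKM and Smarcb1 between 10.0 and 15.6 FPKM. Zbtb22 lay between 7.07 and 10.3 FPKM. The points share the scaling, the 4 classes and the cell mixtures of the libraries.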

How the data were processed

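RNA of 13 libraries was measured by sequencing. Per the submitters' processing notes, mm9 was the build, and Cufflinks 2.1.1 and TopHat2 2.0.5 were used. The annotation release and the strand setting: not given in the sources used here. The deposited tables held FPKM of 94696 transcripts, its 95% confidence bounds, a coverage signal and a status, and hold no fragment counts. Coverage was used only for depth. Identifiers were matched to GENCODE M21 for names (82379, 87.0%). Transcripts of at least 200 bases were summed per gene; transcripts with status LOWDATA, and genes with HIDATA or FAIL transcripts (90 in cells, Acta1 and Actc1 among them, and 64 in ventricles), were left out.

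Libraries were scaled by the median ratio to the geometric mean, cells and ventricles separately. Genes with a mean of at least 1 FPKM were tested on log2(FPKM + 1), which understates changes of low genes, with limma 3.58.1 (R 4.3.3; 4 classes with 4 residual degrees of freedom in cells, a slope over stage order with 3 in ventricles), two-sided, Benjamini-Hochberg over all genes, called below 0.05. Isoform ratios had 0.5 added. The fits were tested on simulated data. Promoter sequences are RefSeq's. Members and gene lists were chosen with earlier results of these data known. Named were all members, up to 3 called genes per other list and comparison with the largest change, their paralogs, overlapping genes, and the 5 genes most like Acta2 and Myh11. A gene that this rule names is not reported here. Alternatives were other scalings, pseudocounts, filters and transcript sums, and each library left out, where a class left with 1 library is assumed to vary like the others.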

Additional observations from a re-analysis of the deposited data

Results flagged for a closer look

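The changes from neonatal to later ages differed between fibroblasts and cardiomyocytes for 6 members by the test of the difference itself (limma, adjusted p below 0.05). The differences, fibroblast change minus cardiomyocyte change on the log2 scale, were 2.62 for Myl9, 2.02 for Actg2, 1.81 for Cnn1, 1.65 for Myh11, 1.33 for Tagln and -0.85 for Cthrc1. Neonatal cardiomyocytes had the highest mean of the 4 classes for the first 5 of these, and neonatal fibroblasts for Cthrc1. Isolation method differed between later and neonatal cardiomyocytes and not between fibroblast ages, so it cannot be told apart from age in these differences. The Cthrc1 difference was lost in 6 of the 8 fits without 1 library. The other 5 differences passed in all 8 of these fits.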

How the results depend on the processing

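No paired analysis was possible because the labels give no replicate numbers that the groups share. Counts of members past the threshold that moved by over 1.5 times were as follows. With a mean of at least 5 FPKM, 6 members could be tested, and 3 passed for the difference of the changes (62.7% of all genes did), 3 between neonatal fibroblasts and neonatal cardiomyocytes (44.3%) and 3 for the ventricle slope (38.1%). The ventricle slope gave 2 with no filter (13% of all genes) and 1 with the stages split into 2 classes (2.18%). Without 1 library the ventricle count ranged from 3 to 6 and the count of isoforms that differed in neonatal cells from 1 to 2. Some member values, all but that of Cthrc1 short of the threshold, took the other sign in a setting. Smtn in fibroblasts was -0.143 on deposited FPKM and -0.142 after removal of mitochondrial genes. Cthrc1's difference was 0.127 with a pseudocount of 0.1. Acta2's difference ranged from -0.502 (without the PN67 cardiomyocytes) to 0.852 with 1 library left out, and was -0.062 without the second neonatal fibroblast library. Cnn2 between neonatal cells was 0.03 with mitochondrial genes removed, 0.028 without the second neonatal cardiomyocyte library, and from -0.433 to 0.219 (without the second neonatal fibroblast library) with 1 library left out. Smtn between later cells was 0.048 with mitochondrial genes removed and from -0.432 to 0.013 (without the PN28 fibroblasts) with 1 library left out. Tagln in ventricles was -0.074 as deposited, -0.058 with mitochondrial genes removed and from -0.118 (without PN90) to 0.229 with 1 library left out. The cause was not tested. Over single members and isoforms, 1149 values kept the call and, for members, the direction, while 70 lost the call and 21 gained it. The 1149 include shares of Cnn2 and Smtn isoforms, short of the threshold, that took the other sign with 1 library left out. Ages of a cell type stand in for replicates in the later classes, so the difference between them is part of the error. The tables give no fragment totals, so depth limits the low members Actg2, Cnn1 and Lmod1 to an unknown degree.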

Other observations

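The paralogs of the members were measured in the same fits. Of 13 tested, 0 rose and 5 fell in later fibroblasts, and 4 rose and 7 fell in later cardiomyocytes (limma). In fibroblasts 0 rose at an unadjusted p under 0.05 (limma). Over all genes, 40.5% passed in fibroblasts and 67% in cardiomyocytes. Smtnl2, a smoothelin-like gene, had 1.83 and 2.37 FPKM in PN28 and PN60 fibroblasts, against 13.2 and 18.6 FPKM in neonatal fibroblasts, a change of -2.43 (adjusted p = 0.000134). Myh10, a non-muscle myosin heavy chain, had 7.74 and 14.3 FPKM in later fibroblasts and 30.1 and 38.1 FPKM in neonatal fibroblasts (-1.59, adjusted p = 0.00456). Its ventricle slope was -0.79, with 58.4, 36.0, 25.9, 8.70 and 6.46 FPKM from E17 to PN90 (adjusted p = 0.00416). The sign of this slope was opposite to that of Myh11, the smooth muscle heavy chain, which was 0.61.

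Cnn3, the third calponin, had 29.5 and 26.2 FPKM in PN30 and PN67 cardiomyocytes, against 163 and 192 FPKM in neonatal cardiomyocytes, a change of -2.62 (adjusted p = 1.74e-05, limma). Tagln2, the transgelin of non-muscle cells, was higher in neonatal fibroblasts than in neonatal cardiomyocytes by 1.02 (adjusted p = 0.00233). Lmod2, the leiomodin of striated muscle, changed by 3.23 in cardiomyocytes (adjusted p = 8.78e-06), and its ventricle slope was 0.85 (adjusted p = 0.00416).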
